A study of Mus musculus with 6 samples.

Results

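The genes described here encode the subunits of the proteasome, taken as every gene of the deposited expression table whose symbol is Psma, Psmb, Psmc or Psmd followed by a number and that was detected in at least 1 library. There are 39 of them among 53342 genes. They comprise 8 genes of the alpha ring and 7 of the constitutive beta ring of the 20S core, 3 immunoproteasome subunits, 1 thymic beta subunit, 6 ATPases and 11 non-ATPase subunits of the 19S cap, and 3 assembly chaperones of the cap that carry a Psmd symbol. RNA from skeletal muscle of male mice was sequenced in 6 libraries, 2 for each of 3 genotypes. Control mice carried floxed genes and no Cre. LDKO mice lacked Irs1 and Irs2, the adaptors of the insulin receptor, where an albumin promoter drives Cre, which is in the liver. LTKOFstL/L mice were LDKO mice that also carried a floxed Fst gene, with loxP sites before exon 2 and after exon 5. The authors' comparison headers name this group LDKO-FstKO, that is, with Fst knocked out as well. Muscle does not carry these deletions, so muscle transcripts of the targeted genes do not check the labels. The labels give a high fat diet and the series text gives chow between 5 and 16 weeks, and the diet is therefore not settled. Nothing in the labels says whether the 2 libraries of a genotype are from different animals, and the p-values here cover the spread among these samples alone, which may be technical.

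The proteasome degrades proteins that carry ubiquitin chains. In the 20S core, alpha rings gate the entry and beta rings hold the catalytic sites, and in the 19S cap non-ATPase subunits bind, hold and strip the tagged protein while a ring of ATPases unfolds it and feeds it into the core. In wasting muscle the transcripts of many subunits are known to rise together with those of the ubiquitin ligases Fbxo32 (atrogin-1) and Trim63 (MuRF1). The transcription factor Nfe2l1, once cut by the protease Ddi2, is known to drive subunit genes through the antioxidant response element, which it binds with a small Maf partner such as Mafk.

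The start regions of the subunit genes were searched for strings that match this element. Whether a match is bound or used was not tested. The element was searched as TGACNNNGC or TGAGNNNGC on both strands in the 250 bases before the RefSeq start of each gene (GRCm38.p6). Of the 32 subunit genes with an entry that was used, 11 held a match (34.4%), against 25.7% of 27025 genes. These 11 were Psma4, Psma6, Psmb3, Psmb5, Psmb6, Psmc2, Psmc6, Psmd1, Psmd12, Psmd5 and Psmd9. Below, Psmb5 and Psmd12 are shown as genes with a match, in capitals. Psmd11 and Psmd4 are shown because their transcripts differed most between LTKOFstL/L and LDKO, and Psmb9 because it stood highest in LTKOFstL/L over Control. None of these last 3 windows held a match.
Psmb5 (chr14:54617996-54618245, minus strand): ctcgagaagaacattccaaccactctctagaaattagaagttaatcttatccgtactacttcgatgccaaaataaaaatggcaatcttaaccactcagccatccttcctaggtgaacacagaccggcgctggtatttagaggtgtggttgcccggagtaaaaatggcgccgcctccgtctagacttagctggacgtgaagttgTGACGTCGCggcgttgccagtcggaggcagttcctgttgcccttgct
Psmd12 (chr11:107479278-107479527, plus strand): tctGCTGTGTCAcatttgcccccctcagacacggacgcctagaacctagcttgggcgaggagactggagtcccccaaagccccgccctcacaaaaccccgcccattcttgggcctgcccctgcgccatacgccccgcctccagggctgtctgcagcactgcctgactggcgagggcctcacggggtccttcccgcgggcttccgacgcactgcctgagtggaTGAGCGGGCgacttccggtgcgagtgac
Psmd11 (chr11:80428365-80428614, plus strand): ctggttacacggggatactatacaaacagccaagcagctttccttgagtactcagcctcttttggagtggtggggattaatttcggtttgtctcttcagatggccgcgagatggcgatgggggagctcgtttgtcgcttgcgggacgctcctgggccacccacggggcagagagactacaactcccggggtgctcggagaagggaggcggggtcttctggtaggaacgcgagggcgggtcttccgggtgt
Psmd4 (chr3:95042615-95042864, minus strand): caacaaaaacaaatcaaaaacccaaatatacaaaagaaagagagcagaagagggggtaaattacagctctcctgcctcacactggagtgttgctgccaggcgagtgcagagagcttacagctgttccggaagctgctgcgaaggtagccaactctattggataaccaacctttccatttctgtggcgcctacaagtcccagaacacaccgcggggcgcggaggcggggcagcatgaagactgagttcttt
Psmb9 (chr17:34187331-34187580, minus strand): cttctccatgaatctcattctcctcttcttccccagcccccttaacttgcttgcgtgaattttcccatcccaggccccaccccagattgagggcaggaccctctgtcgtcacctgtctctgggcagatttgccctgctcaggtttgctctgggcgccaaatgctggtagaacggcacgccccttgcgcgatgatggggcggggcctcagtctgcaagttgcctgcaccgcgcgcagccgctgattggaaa
In Psmb5 the match TGACGTCGC lay from −47 to −39, counted from the base before the start as −1. In Psmd12 a match on the opposite strand lay from −247 to −239 and TGAGCGGGC lay from −28 to −20. The difference between LTKOFstL/L and LDKO had a median of −0.11 over the 11 genes with a match and −0.15 over the 20 tested genes without. The CCAAT box, searched as CCAAT on both strands, stood in 13 of the 32 windows (40.6%), against 37.5% of all genes.

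Values are centred log2 expression, in which each gene was set relative to its own median over the 6 libraries, so values compare libraries and not genes. Of the 39 genes, 37 reached the level cut for testing, that is, log2 4 or more (16 scaled units) in at least 2 libraries. The level could only be placed within a range, and the cut used the lower end of that range. None of the 37 passed an adjusted p of 0.05 in limma in any comparison. Among all 16323 genes tested, 0.282% passed in LDKO against Control, 2.1% passed in LTKOFstL/L against Control, and 2.51% passed when LTKOFstL/L was set against LDKO. At an unadjusted p under 0.05 there were 0, 3 and 5 subunit genes in these comparisons (0%, 8.11% and 13.5%), against 6.72%, 15.2% and 19% of all genes. The intervals, taken for each gene alone, rest on the spread among these libraries, which may be technical. The 95% interval of the difference stayed within 2-fold for 37 of 37 genes in LDKO against Control, for 36 in LTKOFstL/L against Control and for 35 in LTKOFstL/L against LDKO. Psmb9 was the exception in the second comparison, and Psmb9 and Psmd4 in the third. Among all 16323 genes tested, the interval stayed within 2-fold for 10293, 9543 and 8959 in these comparisons. Most subunit genes had their lowest library at log2 8 or more. Among all 7549 tested genes at that level, the interval stayed within 2-fold for 6940, 6631 and 6283.

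The subunits varied together more than this count shows. LDKO exceeded Control in 33 of 37 genes (89.2%, against 50.4% of all genes), with a median difference of 0.16. LTKOFstL/L exceeded Control in 16 (43.2%, against 50.3%), with a median of −0.06, and exceeded LDKO in 8 (21.6%, against 50.7%), with a median of −0.15. The median over all genes tested was within 0.01 of 0 in each comparison. The 3 comparisons share libraries and are not independent of each other.

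**Figure D1:**
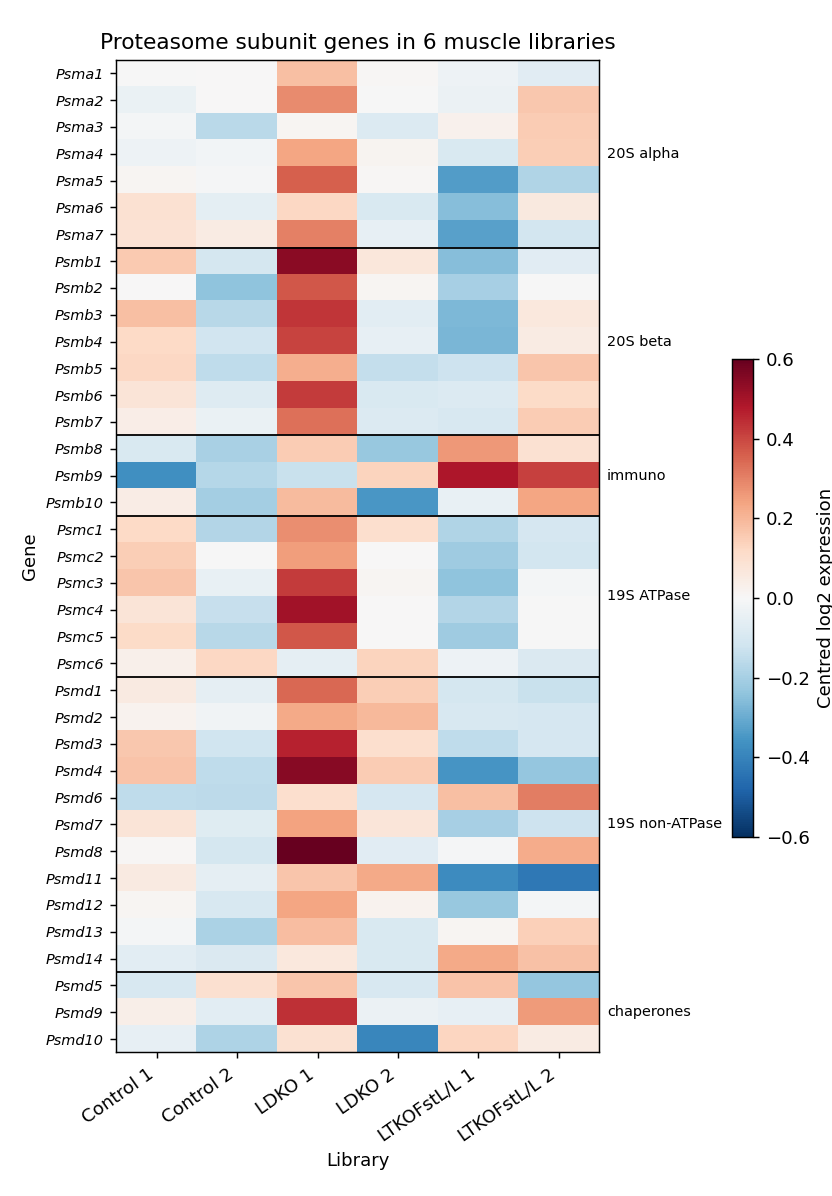
Centred log2 expression (colour) of the 37 tested subunit genes (rows, grouped by subcomplex) in the 6 libraries (columns). LDKO 1 is the highest library for 27 of the 37 genes, and LTKOFstL/L 1 is the lowest for 17. Both LTKOFstL/L libraries lie above all others for several genes, among them Psmb9, Psmd6 and Psmd14. They lie below all others for several more, among them Psmd11, Psmd4 and Psma5.

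Much of this common movement lay between libraries of one genotype. LDKO 1 was the highest of the 6 libraries for 27 of 37 subunit genes (73.0%, against 24.0% of all genes), and LTKOFstL/L 1 the lowest for 17 (45.9%, against 17.2%). The median subunit stood at 0.04 in Control 1, −0.10 in Control 2, 0.25 in LDKO 1, 0.0023 in LDKO 2, −0.11 in LTKOFstL/L 1 and −0.0026 in LTKOFstL/L 2. LDKO 1 exceeded LDKO 2 in 34 of 37 genes (91.9%, against 49.8% of all genes), with a median gap of 0.35. That gap is wider than the median difference between LDKO and Control. Without LDKO 1 the median difference from Control to LDKO was 0.0059, with 21 of 37 genes higher, and without LDKO 2 it was 0.29, with 36 higher. The median difference from LDKO to LTKOFstL/L was −0.06 without LDKO 1, with 16 of 37 genes higher, and −0.36 without LDKO 2, with 5 higher. From Control to LTKOFstL/L the median turned to 0.05 without Control 1 and to 0.04 without LTKOFstL/L 1, with 21 and 22 of 37 genes higher.

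Muscle fibre markers moved the same way between these libraries. Their medians over 12 genes, among them Acta1, Ckm and Ttn, were 0.04 and −0.08 in Control, 0.21 and −0.06 in LDKO against −0.08 and 0.10 in LTKOFstL/L, and 10 of 12 were higher in LDKO 1 than in LDKO 2. All 12 were detected in these libraries. Between genotypes, 9 of 12 were higher than in Control in LDKO (median 0.09) and 9 in LTKOFstL/L (median 0.06). From LDKO to LTKOFstL/L 3 of 12 were higher (median −0.08), and none passed the test in any comparison. The number of fibres and the RNA per fibre cannot be told apart in bulk muscle. The Control libraries also held pancreatic acinar transcripts, whose median over 14 genes was 12.55 and 8.54 there, 1.36 and −1.57 in LDKO against −2.06 and −2.31 in LTKOFstL/L. The part of either pattern in the subunit values was not tested.

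**Figure D2:**
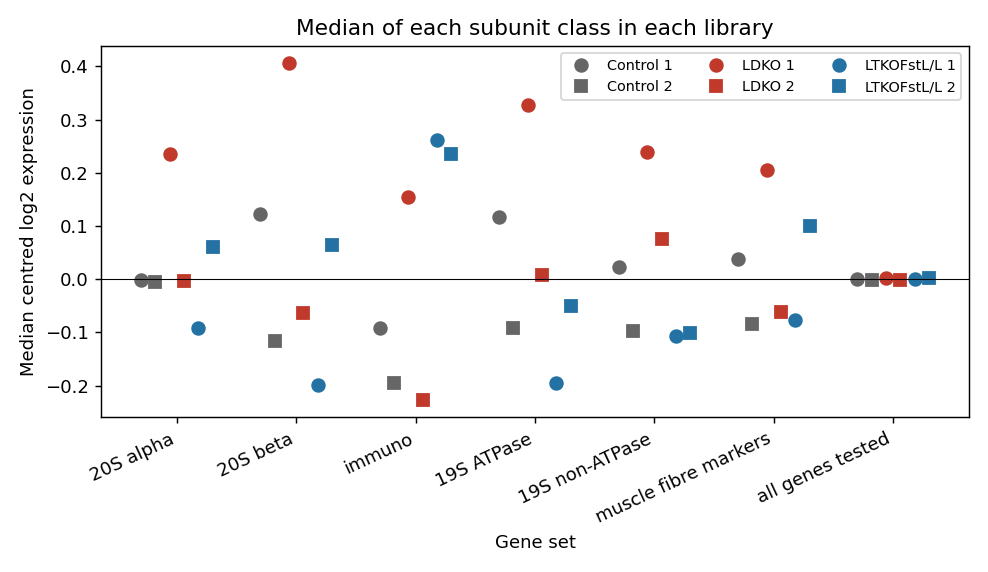
Median centred log2 expression of each subcomplex in each library (colour, genotype; circle, replicate 1; square, replicate 2), beside the muscle fibre markers and all genes tested. LDKO 1 is the highest library in every class but the immunoproteasome, where both LTKOFstL/L libraries stand above the other 4.

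The 7 tested alpha ring genes had median differences of 0.09 from Control to LDKO, −0.05 from Control to LTKOFstL/L and −0.11 from LDKO to LTKOFstL/L. In the last comparison single genes ran from −0.44 to 0.13. Psma5, which encodes alpha5, stood at 0.01 and −0.01 in Control, 0.36 and 0.01 in LDKO against −0.34 and −0.18 in LTKOFstL/L. Both LTKOFstL/L libraries lay below the other 4, and the LDKO libraries spread more widely than any other pair. Its difference from LDKO to LTKOFstL/L was −0.44 ± 0.17 (SE, n = 2 libraries per group, adjusted p = 0.216 in limma), and from Control to LDKO it was 0.18 (adjusted p = 0.873). Psma7, which encodes alpha4, had 0.09 and 0.05 in Control, 0.30 and −0.05 in LDKO against −0.33 and −0.11 in LTKOFstL/L. It held the lowest difference from Control to LTKOFstL/L in the ring, −0.29 ± 0.17 (adjusted p = 0.490), again with no overlap between the groups.

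Psma3, which encodes alpha7, was the alpha gene that lay highest in LTKOFstL/L, at 0.03 and 0.15, against −0.01 and −0.16 in Control and 0.01 and −0.08 in LDKO. Its differences were 0.17 from Control and 0.13 from LDKO (adjusted p = 0.631 and 0.680). Psma6, which encodes alpha1, had a difference of −0.0014 from Control to LDKO, the lowest of the ring, and its 6 values ran from −0.25 in LTKOFstL/L 1 to 0.12 in LDKO 1. Psma1, Psma2 and Psma4 differed by between −0.14 and 0.16 in the 3 comparisons. Psma8, the testis form of an alpha subunit, was at the floor of the scale in 4 libraries. Its values of 0.86 in LDKO 1 and 1.08 in LTKOFstL/L 1 equal the scaled value of a single read there, and it was not tested.

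In the constitutive beta ring all 7 genes were higher in LDKO than in Control on average, with a median of 0.18, and all 7 were lower in LTKOFstL/L than in LDKO, with a median of −0.29. None passed the test. Psmb1, a structural beta subunit, stood at 0.16 and −0.10 in Control, 0.54 and 0.07 in LDKO against −0.26 and −0.07 in LTKOFstL/L. The LTKOFstL/L libraries lay below both LDKO libraries but overlapped Control. Its difference from LDKO to LTKOFstL/L was −0.47 ± 0.20 (adjusted p = 0.269) and from Control to LTKOFstL/L −0.19 (adjusted p = 0.725). Psmb2, also structural, had 0.0026 and −0.24 in Control, 0.37 and 0.01 in LDKO against −0.20 and −0.0026 in LTKOFstL/L. It showed the highest difference from Control to LDKO in the ring, 0.31 ± 0.18 (adjusted p = 0.805). All 7 beta genes were higher in LDKO 1 than in LDKO 2, and without LDKO 1 the ring's median difference from Control to LDKO was −0.07, with 2 of 7 higher, and from LDKO to LTKOFstL/L −0.04, with 4 of 7 lower. The structural genes Psmb3 and Psmb4 had differences of 0.18 each from Control to LDKO and −0.29 each from LDKO to LTKOFstL/L.

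The immunoproteasome replaces the 3 catalytic beta subunits Psmb6 (beta1), Psmb7 (beta2) and Psmb5 (beta5) with Psmb9, Psmb10 and Psmb8, which are induced by interferon-gamma and favour the production of antigen peptides. All 3 immune subunits were higher in LTKOFstL/L than in Control on average, with a median of 0.32, while the 3 constitutive partners differed by 0.02, 0.03 and 0.04. Psmb9 (ENSMUSG00000096727, GRCm38 chromosome 17, 34181987 to 34187764) stood at −0.37 and −0.17 in Control, −0.13 and 0.13 in LDKO against 0.48 and 0.41 in LTKOFstL/L. Its 3 groups did not overlap. The difference from Control to LTKOFstL/L was 0.72 ± 0.27 (95% interval 0.10 to 1.34, adjusted p = 0.256 in limma), and those from Control to LDKO and from LDKO to LTKOFstL/L were 0.27 (adjusted p = 0.875) and 0.45 (adjusted p = 0.415).

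Psmb8 had −0.09 and −0.19 in Control, 0.15 and −0.23 in LDKO against 0.26 and 0.09 in LTKOFstL/L. LTKOFstL/L lay above Control without overlap, by 0.32 ± 0.28 (adjusted p = 0.651), and overlapped LDKO. Psmb10 had 0.05 and −0.20 in Control, 0.19 and −0.35 in LDKO against −0.05 and 0.24 in LTKOFstL/L. Its groups overlapped throughout, with a difference of 0.17 ± 0.22 from Control to LTKOFstL/L (adjusted p = 0.767). The constitutive partners spread widely within genotypes. Psmb5 stood at 0.12 and −0.15 in Control, 0.22 and −0.14 in LDKO against −0.12 and 0.17 in LTKOFstL/L. Psmb6 stood at 0.08 and −0.08 in Control, 0.42 and −0.09 in LDKO against −0.08 and 0.11 in LTKOFstL/L. Psmb7 stood at 0.04 and −0.04, 0.33 and −0.08, and −0.10 and 0.15 in the same order. In all 3 the genotypes overlapped, and their adjusted p from Control to LTKOFstL/L lay between 0.956 and 0.981.

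**Figure D3:**
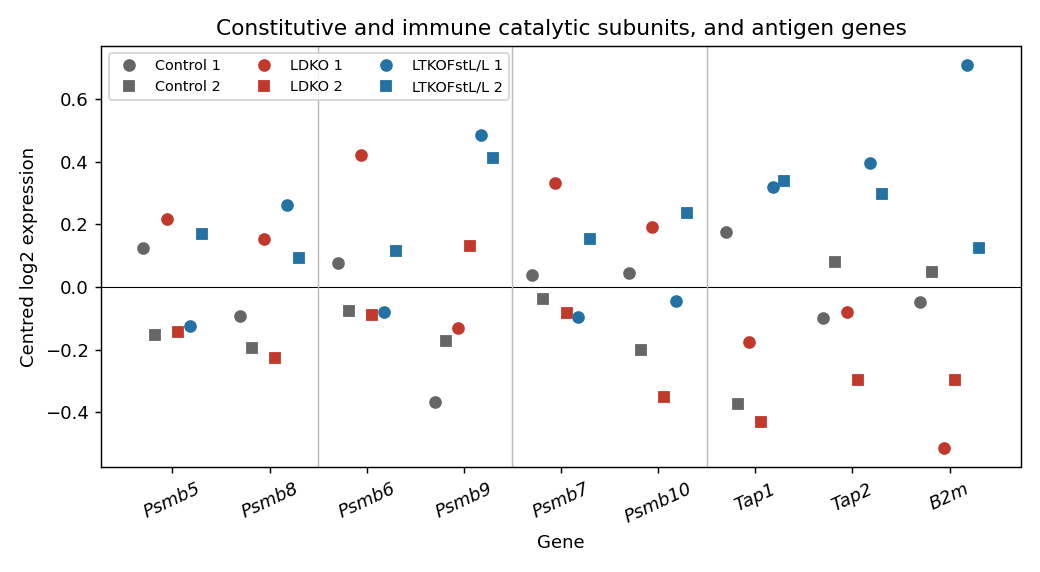
Centred log2 expression in each library of the 3 constitutive catalytic subunits, each beside its immune replacement, and of 3 antigen presentation genes. Psmb9 is the immune subunit whose LTKOFstL/L libraries, at 0.48 and 0.41, lie above all others, and the constitutive subunits overlap between genotypes.

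In both comparisons with LTKOFstL/L, genes of antigen processing and the interferon-gamma response leaned the same way, with none of 27 past the test. Of the 27, 20 were higher in LTKOFstL/L than in Control (median 0.24) and 23 higher than in LDKO (median 0.40). From Control to LDKO the 2 sets differed. There 5 of the 27 genes were higher in LDKO (median −0.21), against 2 of the 3 immune subunits (median 0.11). Tap1, which pumps peptides into the endoplasmic reticulum, stood at 0.18 and −0.37 in Control, −0.18 and −0.43 in LDKO against 0.32 and 0.34 in LTKOFstL/L. B2m, the light chain of class I molecules, stood at −0.05 and 0.05, −0.51 and −0.30, and 0.71 and 0.13. B2m was higher in LTKOFstL/L than in LDKO by 0.82 ± 0.21 (adjusted p = 0.0993), and Tap1 by 0.63 ± 0.30 (adjusted p = 0.301). Exons of Psmb9 and Tap1 overlap on opposite strands, and whether the counting used strand is not given, so reads there could belong to either gene. All 21 listed leukocyte markers were detected, and 7 of the 15 tested were higher in LTKOFstL/L than in Control (median −0.10). Their library medians were 0.12 and 0.15 in Control, 0.17 and −0.45 in LDKO against 0.05 and −0.03 in LTKOFstL/L. Ptprc, the pan-leukocyte antigen, did not reach the level cut for testing and stood at 0.45 and 0.14, −0.52 and −1.14, and 1.26 and −0.14. Fat cell markers were higher in LTKOFstL/L than in Control in 7 of 7 genes (median 1.48, with 1 that rose) and than in LDKO in 7 of 7 (median 1.63, with 1 that rose). Fibroblast and tendon markers were higher in LTKOFstL/L than in Control in 7 of 9 (median 0.50, with 1 that rose). They were higher than in LDKO in 9 of 9 (median 1.33, with 5 that rose). In LTKOFstL/L the other 2 lists compared as follows. Nerve and Schwann cell markers were lower than in Control in 7 of 7 (median −0.40) and higher than in LDKO in 7 of 7 (median 0.50), and of 6 endothelial markers 5 were lower than in Control (median −0.18), with none past the test in either list. Their part in the immune subunit values was not tested.

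The 6 ATPases of the cap base were all lower in LTKOFstL/L than in Control (median −0.13) and than in LDKO (median −0.31) on average, and none passed. Without Control 1 the median from Control was −0.02, with 3 of 6 lower (Psmc1, Psmc4 and Psmc5 were higher), and without LTKOFstL/L 1 it was −0.07, with 4 of 6 lower. From LDKO all 6 stayed lower whichever LDKO or LTKOFstL/L library was left out, with a median of −0.15 without LDKO 1 and −0.45 without LDKO 2. Psmc4 (Rpt3) stood at 0.08 and −0.14 in Control, 0.50 and 0.0036 in LDKO against −0.17 and −0.0036 in LTKOFstL/L. Its differences were 0.29 ± 0.20 from Control to LDKO (adjusted p = 0.842), the highest of the ring, and −0.34 ± 0.20 from LDKO to LTKOFstL/L (adjusted p = 0.408). Psmc3 (Rpt5) had nearly the same difference from LDKO to LTKOFstL/L, −0.34 ± 0.19 (adjusted p = 0.379), with 0.17 and −0.04 in Control, 0.42 and 0.01 in LDKO against −0.24 and −0.01 in LTKOFstL/L. Psmc2 (Rpt1) stood at 0.15 and −0.0023 in Control, 0.25 and 0.0023 in LDKO against −0.21 and −0.11 in LTKOFstL/L. It was the ATPase furthest below Control in LTKOFstL/L, by −0.23 ± 0.15 (adjusted p = 0.534), with no overlap. Psmc6 (Rpt4) differed from the other 5 in that LDKO 1 was not its highest library. It stood at 0.03 and 0.12, −0.06 and 0.13, and −0.03 and −0.09, and its difference from Control to LDKO was −0.04. Psmc1, Psmc3 and Psmc5 differed by between −0.34 and −0.30 from LDKO to LTKOFstL/L, each without overlap.

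The non-ATPase subunits differed in both directions and held the widest differences below 0 of the whole complex, while the widest above 0 was that of Psmb9. Psmd11 (Rpn6, ENSMUSG00000017428, GRCm38 chromosome 11, 80428615 to 80473248), which clamps the cap onto the core, stood at 0.06 and −0.06 in Control, 0.17 and 0.23 in LDKO against −0.38 and −0.43 in LTKOFstL/L. Its 3 groups did not overlap, and replicates lay closer to each other than the group means did. The difference from LDKO to LTKOFstL/L was −0.60 ± 0.14 (adjusted p = 0.0719), the smallest adjusted p of any subunit in limma. From Control to LTKOFstL/L it was −0.41 ± 0.14 (adjusted p = 0.217) and from Control to LDKO 0.20 ± 0.14 (adjusted p = 0.834). Psmd11 lay between −0.63 and −0.57 from LDKO to LTKOFstL/L whichever LDKO or LTKOFstL/L library was left out. Its adjusted p in limma depended on the setting. With 2 libraries kept per genotype compared, it ran from 0.0523 with a stricter level filter to 0.176 with a single variance prior.

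Psmd4 (Rpn10, ENSMUSG00000005625, chromosome 3, 95032694 to 95042614), a receptor for ubiquitin chains, stood at 0.17 and −0.15 in Control, 0.55 and 0.15 in LDKO against −0.35 and −0.23 in LTKOFstL/L. The LTKOFstL/L libraries were below all others. Its difference from LDKO to LTKOFstL/L was −0.64 ± 0.19 (adjusted p = 0.135). This was −0.84 without LDKO 2, where it passed (adjusted p = 0.0478), and −0.44 without LDKO 1 (adjusted p = 0.275). In fits with a library left out, the lone library of that genotype is assumed to vary like the other genotypes, and the spread comes from them alone. From Control to LDKO it was 0.34 ± 0.19 (adjusted p = 0.800), the highest of the class. The large scaffold subunits Psmd1 (Rpn2) and Psmd2 (Rpn1) were 0.36 and 0.31 lower in LTKOFstL/L than in LDKO in mean log2 value (adjusted p = 0.233 and 0.263). Psmd1 stood at 0.05 and −0.05, 0.34 and 0.15, and −0.11 and −0.13, and Psmd2 at 0.02 and −0.02, 0.23 and 0.19, and −0.10 and −0.10. Both showed the order LDKO, Control, LTKOFstL/L without overlap, as did Psmd11. Psmd3, Psmd7 and Psmd12 also lay lower in LTKOFstL/L than in LDKO without overlap, with differences between −0.41 and −0.25.

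Against this direction, Psmd6 (Rpn7), a lid scaffold subunit, stood at −0.15 and −0.16 in Control, 0.10 and −0.10 in LDKO against 0.18 and 0.31 in LTKOFstL/L. Both LTKOFstL/L libraries were the highest of the 6, and LTKOFstL/L exceeded Control by 0.40 ± 0.15 (adjusted p = 0.259). Psmd14 (Rpn11), the enzyme that cuts the ubiquitin chain off the substrate, stood at −0.07 and −0.09 in Control, 0.07 and −0.09 in LDKO against 0.23 and 0.18 in LTKOFstL/L. It too was highest in LTKOFstL/L, by 0.28 over Control and 0.21 over LDKO (adjusted p = 0.407 and 0.452). Psmd13 (Rpn9) and Psmd8 (Rpn12), lid subunits, were 0.18 and 0.16 above Control in LTKOFstL/L, but their differences from LDKO to LTKOFstL/L were 0.03 and −0.15, and the Psmd8 value of 0.60 in LDKO 1 was its highest, against −0.07 in LDKO 2.

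Of the 3 chaperones of cap assembly, Psmd5 and Psmd9 overlapped between the genotypes in every comparison. Psmd10, also called gankyrin, stood at −0.05 and −0.19 in Control, 0.09 and −0.39 in LDKO against 0.13 and 0.05 in LTKOFstL/L, and exceeded Control in LTKOFstL/L by 0.21 ± 0.28 (adjusted p = 0.791). Counted over all 37 genes, LTKOFstL/L lay below LDKO without overlap in 17 (45.9%, against 24.3% of all genes) and above it in 4 (10.8%, against 25.2%). LTKOFstL/L lay below Control without overlap in 10 (27%, against 24.8%) and above it in 7 (18.9%, against 25.2%). LDKO lay above Control without overlap in 9 (24.3%, against 16.4%) and below it in 0 (0%, against 17%).

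**Figure D4:**
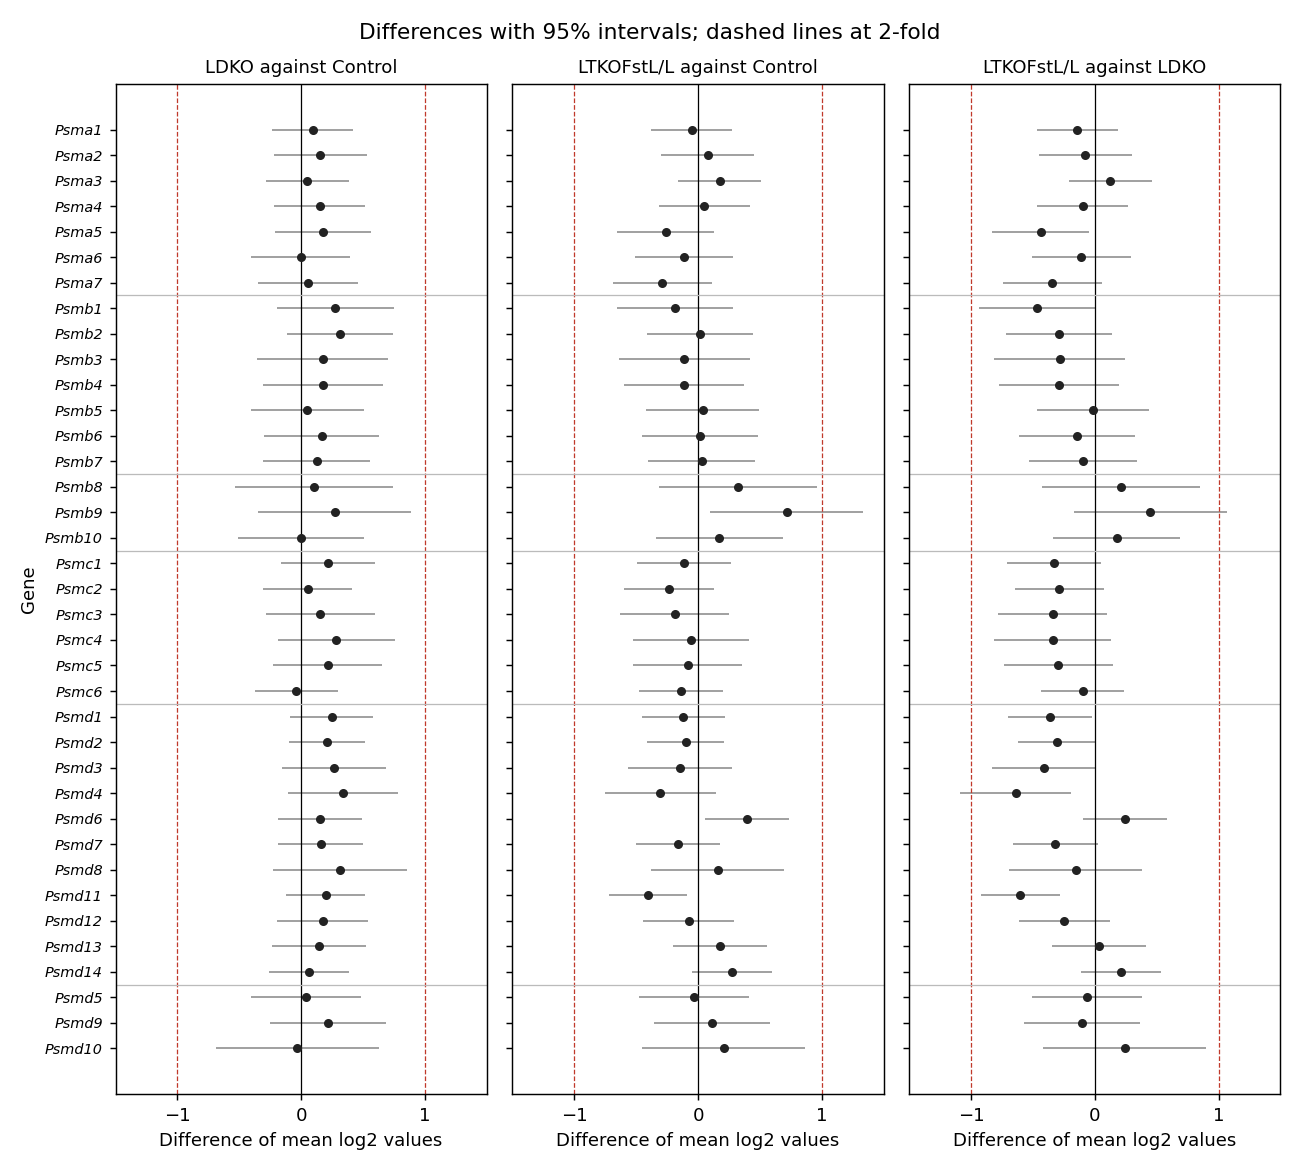
Difference of mean log2 values with its 95% interval in limma (n = 2 libraries per group) for each tested subunit gene in the 3 comparisons, with dashed lines at 2-fold. Most intervals cross 0, and Psmd11 and Psmd4 lie furthest below 0 in LTKOFstL/L against LDKO, at −0.60 and −0.64.

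Psmb11, the beta5 subunit of the thymic proteasome, lies 3410 bases from Psmb5 on chromosome 14. It was not tested, as the lower end of its level range did not reach the cut. It stood at −0.21 and −0.48 in Control, 0.91 and 0.91 in LDKO against 0.21 and −0.31 in LTKOFstL/L, and its lowest library lay between 4 and 16 scaled units, where a single read is worth 2.03. Both LDKO libraries lay above the other 4. In the authors' deposited table Psmb11 was 1.25 higher in LDKO than in Control on the log2 scale, with a corrected p of 0.000273. It was the only subunit in the authors' lists of 1378, 2176 and 2421 genes for the 3 comparisons. Those lists hold no log2 difference under 1.00 in either direction. The widest difference of a tested subunit was 0.72 (Psmb9), so the lists cannot tell whether the authors found smaller differences in the tested subunits. With no level filter, limma gave 1.25 with an adjusted p of 0.637.

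None of 26 assembly factors and activators of the proteasome passed in limma, with median differences of 0.11 from Control to LDKO, −0.03 from Control to LTKOFstL/L and −0.13 from LDKO to LTKOFstL/L. LDKO exceeded Control in 17 of the 26, and LDKO 1 exceeded LDKO 2 in 14 (53.8%, median gap 0.016), against 34 of 37 subunit genes (median gap 0.35). Pomp, which guides the maturation of the core, stood at −0.02 and −0.09 in Control, 0.42 and −0.09 in LDKO against 0.02 and 0.32 in LTKOFstL/L. Psme1 and Psme2 encode the 11S activator that caps immunoproteasomes. Psme2 was 0.42 ± 0.19 higher in LTKOFstL/L than in Control (adjusted p = 0.353) without overlap, and Psme1 was 0.17 lower in mean log2 value (adjusted p = 0.724). Psme4, the PA200 activator, was 0.37 ± 0.14 higher (adjusted p = 0.277).

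Among 12 tested regulators of subunit genes, 3 fell from Control to LTKOFstL/L and 2 from LDKO to LTKOFstL/L, and none rose. Nfe2l1 itself stood at −0.10 and −0.02 in Control, 0.07 and 0.23 in LDKO against 0.02 and −0.02 in LTKOFstL/L, and its differences of 0.21, 0.06 and −0.15 did not pass (adjusted p = 0.834, 0.888 and 0.612). Ddi2, its protease, stood at −0.0028 and 0.24, 0.0028 and 0.50, and −1.18 and −1.33. It fell by 1.37 ± 0.20 from Control and by 1.50 ± 0.20 from LDKO to LTKOFstL/L (adjusted p = 0.0239 and 0.0174). Mafk stood at 0.12 and 0.06, −0.06 and 0.37, and −0.99 and −1.13, and fell by 1.15 and 1.21 (adjusted p = 0.0283 and 0.0217). Nfe2l2, the paralogue that answers oxidative stress, fell by 1.48 from Control (adjusted p = 0.0491) and was 0.90 lower than in LDKO (adjusted p = 0.144). Without any 1 Control or LTKOFstL/L library, the differences of these 3 genes from Control no longer passed (adjusted p between 0.110 and 0.255), at −1.49 to −1.25 for Ddi2, −1.22 to −1.09 for Mafk and −1.64 to −1.32 for Nfe2l2. Those of Ddi2 and Mafk from LDKO no longer passed without either LTKOFstL/L library (0.0984 to 0.146), at −1.58 and −1.43 for Ddi2 and −1.28 and −1.15 for Mafk. Nfe2l2 from LDKO passed without LDKO 1, at −1.33 (adjusted p = 0.0124), and stood at −0.48 without LDKO 2 (0.176). Ddi2 shares its locus with Rsc1a1, so reads could belong to either.

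The atrophy ligases Fbxo32 and Trim63 differed far more between LDKO and LTKOFstL/L than any subunit gene did. Of 26 genes of ubiquitin supply and muscle atrophy, these 2 fell from Control and from LDKO to LTKOFstL/L and none rose, with list medians of −0.06 and −0.07. Fbxo32 stood at 0.30 and −0.30 in Control, 0.56 and 0.69 in LDKO against −1.99 and −2.31 in LTKOFstL/L, and fell by 2.78 from LDKO (adjusted p = 0.00407). Trim63 stood at 0.55 and −0.55, 0.82 and 0.71, and −2.45 and −2.51, and fell by 3.24 from LDKO (adjusted p = 0.00771). These compare with a median subunit difference of −0.15 and a widest one of −0.64. From Control to LTKOFstL/L they fell as well, with differences of −2.15 and −2.48 (adjusted p = 0.00511 and 0.0149), and their differences from Control to LDKO, 0.63 and 0.77, did not pass (adjusted p = 0.672 and 0.738). The Fbxo32 falls held whichever library was left out. The Trim63 difference from Control no longer passed without LTKOFstL/L 1 (−2.51, adjusted p = 0.0761) or LTKOFstL/L 2 (−2.45, 0.0795), nor without LDKO 1 or LDKO 2 (−2.48, 0.0535 in both), where the lone LDKO library adds nothing to the estimate of the spread. Its difference from LDKO no longer passed without LDKO 1 (−3.19, 0.0583).

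**Figure D5:**
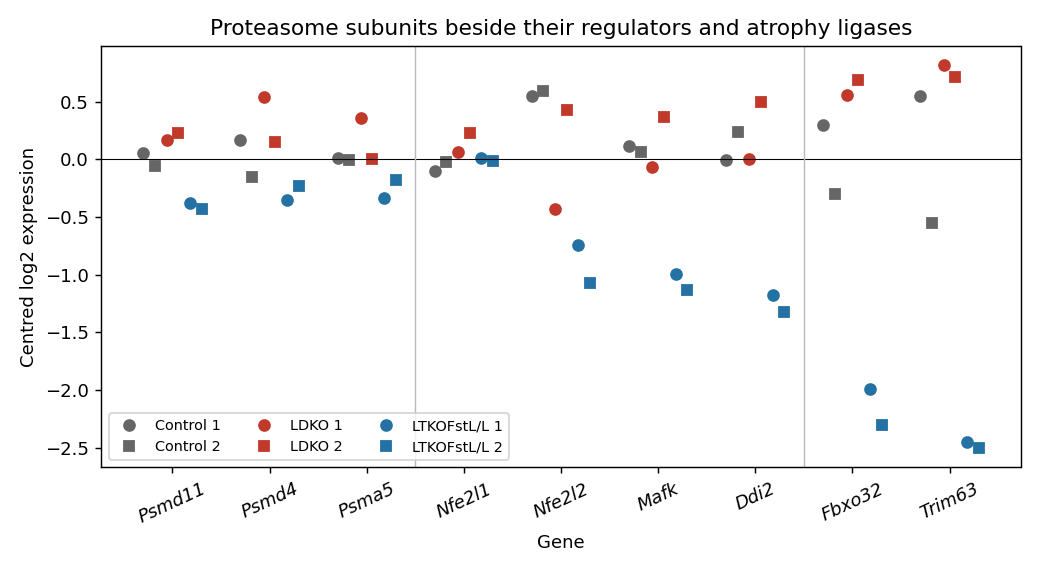
Centred log2 expression in each library of 3 subunit genes, 4 regulators of subunit genes, and the ligase genes Fbxo32 and Trim63. The LTKOFstL/L libraries lie lowest for all of these but Nfe2l1, down to −0.43 for Psmd11 and −2.51 for Trim63.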

How the data were processed

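Muscle RNA was extracted with TRI Reagent and libraries were made with a SMARTer mRNA kit, per the labels' protocols, and mm10 was the genome per the submitters' processing notes. No source used here gives the aligner, counting, strand use, normalization or read totals, so depth is unknown. The authors deposited log2 values. As judged from these values, library-scaled reads were floored at 1 before log2 and each gene was centred on its median. The authors' deposited lists give corrected p-values and log2 differences, copied here for Psmb11 only.

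Centring removes the level, so the level of the lowest library was placed within a range by the precision to which the numbers were stored. This range replaced a filter on mean value, and 16323 genes were tested. limma 3.58.1 in R 4.3.3 fitted 1 mean per genotype to all 6 libraries (3 residual degrees of freedom), with robust empirical Bayes and a prior in 3 level strata (log2 under 4, 4 to 8, 8 or more). Two-sided p-values were adjusted with Benjamini-Hochberg over the tested genes. The fit was tested on simulated data. A difference from Control to LDKO is the LDKO mean minus the Control mean, and likewise for the others, with its moderated SE.

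Members, lists and strata were chosen with earlier results of these data known. One gene of the ubiquitin list is not reported here. In each class the highest and lowest member of each comparison was named, as were the immune subunits with their partners, members at the floor, listed genes past the threshold and a few set partners. The others named were chosen after their values were seen. Alternatives were other priors, filters, scalings, sample sets and a replicate block. GENCODE M21 gave coordinates and overlaps, and RefSeq the start regions. No start sequence is shown for Psma8, and 6 members were not matched. Reads of Psmb5, Psmb6 and Psmb7 could be shared with detected pseudogenes. Besides Psmb9, 10 tested subunit genes share exon positions with another gene, most on the opposite strand.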

Additional observations from a re-analysis of the deposited data

How the results depend on the processing

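No subunit gene passed in any comparison under another prior, filter, scaling or sample set, except Psmd4 from LDKO to LTKOFstL/L without LDKO 2 and Psmd11 at a threshold of 0.10, so subunits called there ran from 0 to 1 over the libraries left out and stood at 1 at that threshold. The count of all genes called depended on the setting. For LDKO against Control it was 1 with a single variance prior, 2 with no level filter and 28 with a stricter filter. For Control to LTKOFstL/L it was 32 with a single prior, 103 with a variance trend, 101 with no filter, 611 with only the compared groups, 223 after quantile normalization and 604 at 0.10. For LDKO to LTKOFstL/L these were 61, 133, 212, 263, 236 and 956. The replicate numbers did not pair the libraries (correlations of deviations 0.18, −0.04 and −0.16), and a replicate block gave 47, 244 and 267 genes, with 0 subunits in each. Psmb5 from LDKO to LTKOFstL/L turned to 0.026 after quantile normalization. The causes were not tested.

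Leaving out each library in turn gave 3 to 131, 72 to 611 and 48 to 697 genes in the 3 comparisons. From Control to LDKO the class medians ran from 0.0040 to 0.23 (alpha), −0.071 to 0.42 (beta), −0.085 to 0.27 (immune) and 0.074 to 0.28 (non-ATPase). From LDKO to LTKOFstL/L they ran from −0.22 to 0.020, −0.47 to −0.039, 0.022 to 0.40 and −0.40 to −0.23. Signs turned for many single genes, more than are listed here. Without LDKO 1, 16 of 37 genes were lower in LDKO than in Control, against 4 with all libraries. Among these 16 were Psma7, Psmb3, Psmb4, Psmc2, Psmc3, Psmd8 and Psmd9. Without LDKO 1, 16 of 37 were higher in LTKOFstL/L than in LDKO, against 8 with all libraries. The ranges of some genes follow. From Control to LDKO, Psma6 ran from −0.11 to 0.11, Psmb10 from −0.27 to 0.27, Psmb5 from −0.13 to 0.23, Psmb6 from −0.091 to 0.42, Psmb7 from −0.083 to 0.33, Psmb8 from −0.085 to 0.30, Psmc6 from −0.13 to 0.057 and Psmd14 from −0.013 to 0.14. From Control to LTKOFstL/L, Psmb5 ran from −0.11 to 0.18, Psmb6 from −0.081 to 0.11, Psmb7 from −0.10 to 0.15 and Psmc4 from −0.16 to 0.050. From LDKO to LTKOFstL/L, Psmb10 ran from −0.095 to 0.45, Psmb5 from −0.19 to 0.17, Psmb6 from −0.40 to 0.11 and Psmb7 from −0.30 to 0.11.

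With a single prior only the fall of Fbxo32 from LDKO remained among the 5 regulator and ligase genes named as passing, and with a variance trend none did. Ddi2, Mafk and Nfe2l2 did not pass against Control with no filter (adjusted p = 0.0562, 0.0623 and 0.0928) or after quantile normalization (0.0518, 0.0517 and 0.0522), Nfe2l2 not with the replicate block (0.0653) and Trim63 not against Control with only the compared groups (0.0535). Depth is unknown, and 2 libraries per genotype limit the precision.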
